A study of Mus musculus with 24 samples.

Results

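Mbp, Mog, Mag, Mobp, Cnp, Cldn11, Mal, Opalin and Ermn were chosen by symbol as genes of myelin and of the mature oligodendrocyte, and all 9 were found among the 36333 genes with a value in every library. Each of the 9 also passed the filter on low values, a mean of at least 0.5 TPM (transcripts in 1000000), which left 17267 genes for testing. TPM is the share of a library's transcripts that a gene takes, corrected for gene length. The methods of the study name the unit TPM but add that its software calls it CPM, a name for counts without that correction. Whether gene length was corrected for was not tested. Levels of different genes can be set side by side only if it was.

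Brain tissue from 24 male mice was sequenced, 1 library per mouse. The labels give the strain as C57BL6N and the age as 12 to 16 weeks, while the methods of the study name a different C57BL substrain and a narrower age range. The study as a whole used both sexes and states that its RNA sequencing was of males. Traumatic brain injury (TBI) was made by controlled cortical impact (CCI), in which a piston strikes the exposed parietal cortex, and all tissue was taken 5 days post injury (dpi). Vehicle (n = 5) was TBI with control chow and saline. PLX3397 (n = 5) was TBI with chow holding 290 mg/kg of PLX3397, an inhibitor of the CSF1 receptor on which microglia depend, given from 90 min after impact. Anakinra (n = 5) was TBI with the interleukin-1 receptor blocker Anakinra, 100 mg/kg under the skin, injected at 5 min and at 24, 48 and 72 h. PLX3397+Anakinra (n = 5) was TBI with both drugs. Sham (n = 4) had anesthesia and a skin incision with vehicle treatment, but neither the craniotomy nor the impact, so every comparison with Sham holds the craniotomy together with the impact. The labels call the tissue cortex, while the methods describe a block that also held striatum, dorsal hippocampus and thalamus, and marker genes of cortical, striatal and thalamic neurons were present in all groups. The animal identifiers of the Vehicle mice are the only ones that end in B. The labels do not say what the letter stands for, and if it is a batch it cannot be told apart from Vehicle. Each library summed to 1000000 TPM and 22160 to 23249 genes were above 0. TPM keeps no read depth, so the counting error behind a value is unknown.

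Myelin is a stack of oligodendrocyte membrane wrapped around axons, which insulates them and speeds conduction. Compact myelin is held together by proteins such as myelin basic protein (Mbp) and Mobp, while Cldn11 forms the tight junctions between the wraps. Mag sits on the inner wrap facing the axon, Mog on the outer surface, and Cnp in the cytoplasmic channels that stay open. Mal is a lipid raft protein involved in membrane traffic, and Opalin and Ermn are made late in oligodendrocyte maturation, Ermn as a protein of the oligodendrocyte cytoskeleton.

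Promoters are shown for Cldn11, the member with the largest difference between injured and Sham mice, and Mobp, one of the members with the smallest. The sequences are the 250 bases before the RefSeq transcription start on GRCm38.p6, at chr3:31149670-31149919 for Cldn11 and chr9:120149492-120149741 for Mobp, both 5′ to 3′ on the plus strand. Capitals mark matches, on either strand, to ACAAAG, a core that SOX-family factors such as the oligodendrocyte regulator Sox10 recognise. On the printed strand they read as the reverse complement.
Cldn11: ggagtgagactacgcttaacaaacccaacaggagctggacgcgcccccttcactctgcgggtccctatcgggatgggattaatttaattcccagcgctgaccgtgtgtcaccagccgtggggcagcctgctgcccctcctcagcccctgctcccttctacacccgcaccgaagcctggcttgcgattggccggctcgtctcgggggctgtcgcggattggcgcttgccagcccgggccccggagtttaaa
Mobp: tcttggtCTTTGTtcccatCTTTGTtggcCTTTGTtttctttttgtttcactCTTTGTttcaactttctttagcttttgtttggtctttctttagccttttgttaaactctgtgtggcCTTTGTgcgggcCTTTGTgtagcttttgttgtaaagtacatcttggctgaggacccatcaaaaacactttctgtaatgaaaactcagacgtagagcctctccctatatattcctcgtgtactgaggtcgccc

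The Mobp promoter held 6 matches and the Cldn11 promoter 0. RefSeq promoter entries were matched for 8 of the 9 genes, all but Mbp. Cnp and Opalin held 1 match each, 2 of the 3 Mag entries held 1, and Mog, Mal and Ermn held 0. Of 32851 mouse promoter entries, 16.5% held at least 1 match and 1 entry, that of Mobp, held 6 or more. The motif was chosen for Sox10, and a match here is a run of letters, not a measured binding site.

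The genes lie on 8 chromosomes. On mouse genome build GRCm38.p6 (RefSeq), Mbp spans chr18:82475091-82585637 on the plus strand and Mobp chr9:120149742-120181488 on the plus strand. Cnp (chr11:100574909-100591875) and Cldn11 (chr3:31149920-31164326) are also on the plus strand. The minus strand carries Mog (chr17:37010740-37023398), Mag (chr7:30899175-30914922), Opalin (chr19:41061959-41077113), Mal (chr2:127633226-127656695) and Ermn (chr2:58045115-58052864). Exons of Cnp share 154 bases with Dnajc7 on the other strand, a gene with a mean of 136 TPM. Whether the library kit marks strand is not stated, so reads in that stretch may have been counted for the wrong gene. Ermn shares 237 bases with Galnt5 and Mobp 79 bases with Gm38642, but these 2 genes had means of 0.22 and 0.716 TPM.

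Together the 9 genes took 0.381% ± 0.0205 (SD, n = 4) of the summed TPM in Sham and 0.469% ± 0.0135 (SD, n = 5) in Vehicle. This is a share of transcripts only if gene length was corrected for. The share was 0.504% ± 0.0165 with PLX3397, 0.438% ± 0.0161 with Anakinra and 0.483% ± 0.0246 with PLX3397+Anakinra (SD, n = 5 each). The highest Sham mouse, at 0.410%, was below the lowest injured mouse, at 0.419%. In bulk tissue, more cells of a type and more RNA per cell cannot be told apart, and a share can also rise because transcripts of other cells become fewer. Mbp took the largest part, 1479 ± 57.5 TPM (SD, n = 4) in Sham, and Ermn the smallest, 64.3 ± 8.48 TPM. Without a correction for gene length this order would also reflect the lengths of the genes.

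**Figure D1:**
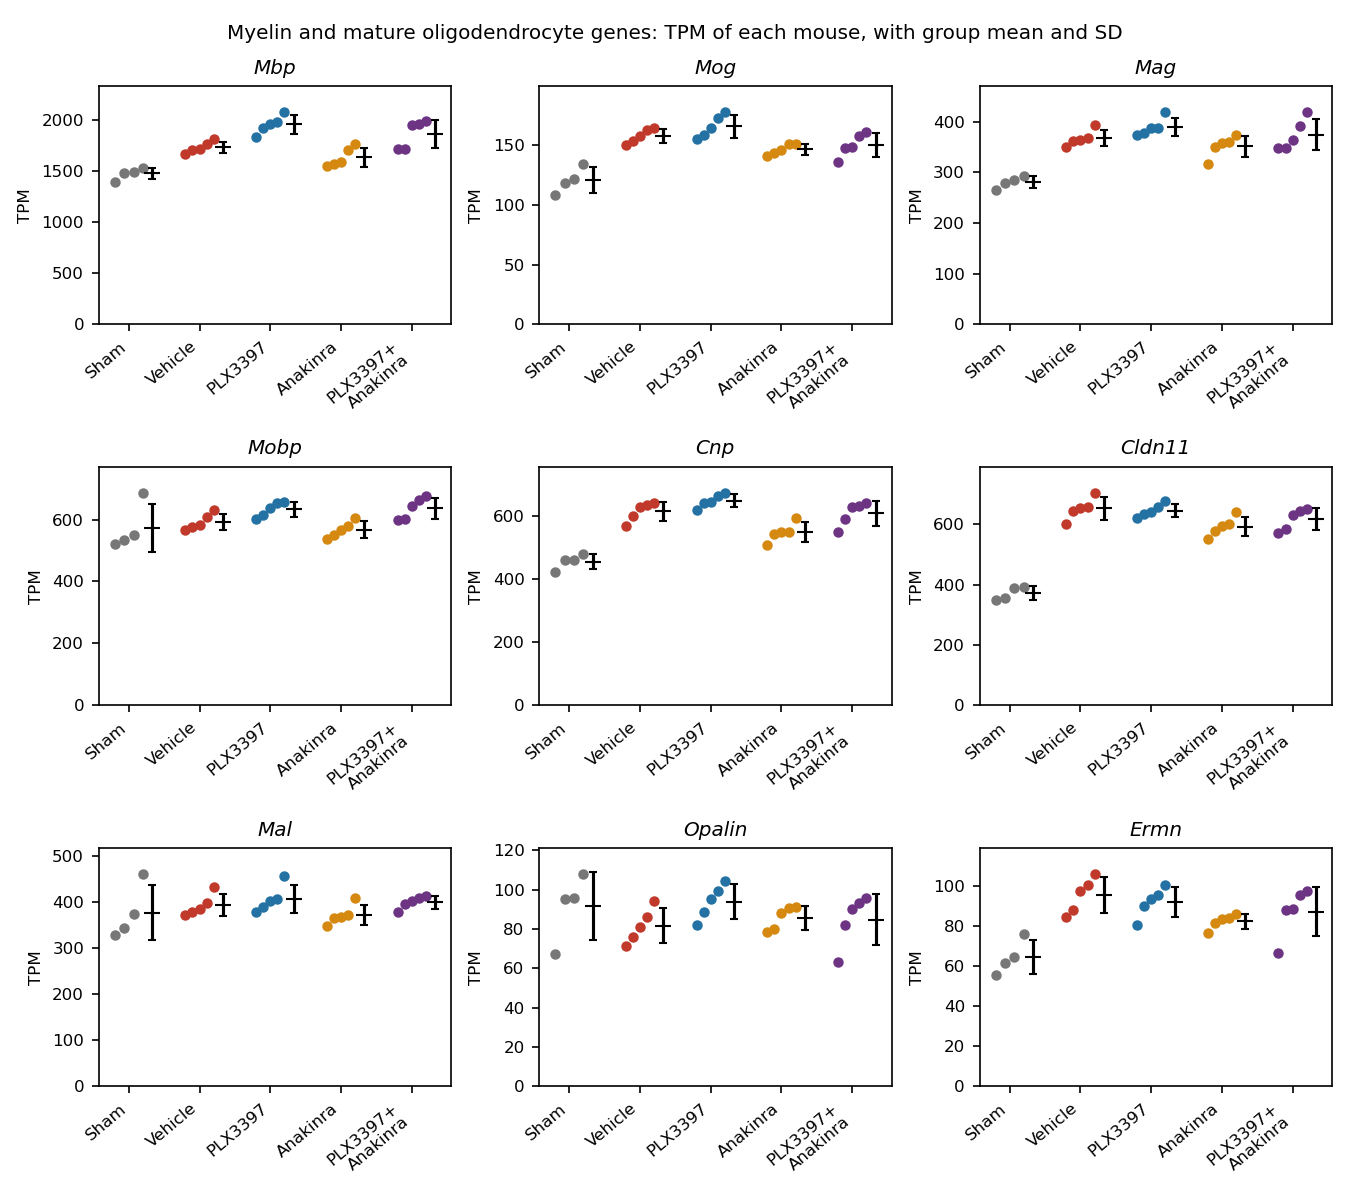
TPM of the 9 genes in each mouse (dots, in order of value within a group), with the group mean and SD (black) beside them. Each vertical axis starts at 0. The 4 Sham mice lie below all Vehicle mice for Mbp, Mog, Mag, Cnp, Cldn11 and Ermn, whereas for Mobp, Mal and Opalin Sham mice lie on both sides of the Vehicle mice, with 1 Sham mouse at 687 TPM of Mobp.

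The first question was what injury with vehicle treatment did to myelin transcripts, by comparing Vehicle with Sham. Higher levels were found for 6 of the 9 genes (limma, adjusted p under 0.05 over all genes tested), namely Cldn11, Ermn, Cnp, Mag, Mog and Mbp, and 0 fell. Among all genes tested, 26.6% rose and 27.7% fell in this comparison. The median log2 fold change of the 9 genes was 0.39, against -0.01 over all genes tested. Groups of the same 6 genes did not overlap between mice, which was true of 21.7% of all genes tested in that direction. Mobp, Mal and Opalin did not pass the test.

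Cldn11, the tight junction protein of the myelin wraps, changed most. Its TPM was 394, 351, 357 and 390 in the Sham mice and 602, 645, 706, 653 and 659 in the Vehicle mice. The lowest Vehicle mouse was thus well above the highest Sham mouse. The log2 fold change was 0.81 ± 0.05 (SE, limma, adjusted p = 2.4e-12).

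Ermn had a log2 fold change of 0.56 ± 0.09 (SE), with 55.6 to 75.8 TPM in Sham and 84.5 to 106 TPM in Vehicle. Cnp rose from 456 ± 24.1 TPM to 615 ± 30.8 TPM in group means and SD, which is 0.43 ± 0.05 (SE) on the log2 scale. The adhesion and surface proteins Mag and Mog rose alike on the log2 scale, by 0.39 ± 0.05 (SE) each. For these 4 genes limma's adjusted p lay between 1.1e-07, for Cnp, and 1.5e-05, for Ermn. Mag stood at 266 to 293 TPM in Sham and 350 to 393 TPM in Vehicle, and Mog at 108 to 135 and 150 to 165 TPM.

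Mbp, the member with the highest TPM, rose least among those that passed. Its TPM was 1534, 1485, 1398 and 1497 in the Sham mice. In the Vehicle mice it was 1672, 1713, 1764, 1714 and 1813. The lowest Vehicle mouse lay above the highest Sham mouse, and the log2 fold change was 0.23 ± 0.05 (SE, limma, adjusted p = 0.00076).

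Mobp, Mal and Opalin had log2 fold changes of 0.06 ± 0.06, 0.07 ± 0.07 and -0.15 ± 0.12 (SE), with limma's adjusted p at 0.45, 0.42 and 0.30. The Mobp values in Sham were 521, 533, 549 and 687 TPM and in Vehicle 609, 630, 577, 567 and 581 TPM. A single Sham mouse, J16, was thus above every Vehicle mouse for Mobp, as it was for Mal, at 462 TPM against 329 to 374 TPM in the other Sham mice and 372 to 432 TPM in Vehicle. Without J16, Mobp and Mal passed the test in Vehicle versus Sham, with log2 fold changes of 0.15 ± 0.05 (SE, adjusted p = 0.016) and 0.17 ± 0.06 (SE, adjusted p = 0.020), and 8 of the 9 genes were then higher. The share of all genes that rose in that refit is not given, so the count has no background beside it. J16 was the highest Sham mouse for 5 of the 9 genes. The 9 genes together took 0.410% of its summed TPM, against 0.363% to 0.378% in the other Sham mice. It was also the highest Sham mouse in the summed TPM of the other myelin sheath and paranode genes described below, 3482 against 3333 to 3425. The other lists described below were mixed. J16 was the highest for progenitor genes, 364 against 351 to 361, but the lowest for the lipid enzyme list, 847 against 860 to 990. For transcription factors (414 against 412 to 443) and disease genes (215 against 206 to 220) it lay between the other Sham mice.

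Opalin was the only member with a lower mean in Vehicle than in Sham. Its TPM was 95.6, 108, 67.1 and 95.1 in the Sham mice and 75.9, 94.0, 80.7, 71.2 and 86.2 in the Vehicle mice. Sham mouse J15 was the lowest of both groups and the other Sham mice were the highest of both. Without J15 the log2 fold change was -0.29 ± 0.11 (SE, limma, adjusted p = 0.027), so this mouse decides whether Opalin passes as lower after injury.

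Ratios within each library show how far some members moved against each other. The first pair sets Cldn11, the member that moved most, against Mobp, one that moved little. The second sets Opalin, the only member with a lower mean after injury, against Mog, whose log2 fold change was the median of the 9 genes. Both pairs were chosen after the values were seen, so the direction of each ratio follows from the choice and no test is given. The size of a ratio within a group compares transcript levels only if gene length was corrected for. Cldn11 stood at 0.658 ± 0.0771 of the Mobp level in Sham (SD, n = 4, highest 0.756) and at 1.10 ± 0.0968 in Vehicle (SD, n = 5, lowest 0.988). Opalin stood at 0.761 ± 0.153 of the Mog level in Sham and at 0.517 ± 0.0480 in Vehicle (SD, range 0.473 to 0.597), and Sham mouse J15 fell within the Vehicle range. The Cldn11 ratio separated Sham from all injured groups, whose lowest value was 0.911.

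Each of the 3 drug-treated groups was also compared with the same 4 Sham mice. Since all share them, the comparisons are not independent of each other. With PLX3397, 7 of 9 genes were higher than in Sham, against 22.7% of all genes tested. With Anakinra 6 of 9 were higher, against 25.1%, and with PLX3397+Anakinra 7 of 9, against 20.7%. None of the 9 was lower in any of these comparisons, in which 22.5%, 29.2% and 18.1% of all genes were. The median log2 fold change of the 9 genes was 0.46, 0.27 and 0.33 in that order, with a median over all genes tested between -0.04 and -0.01.

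**Figure D2:**
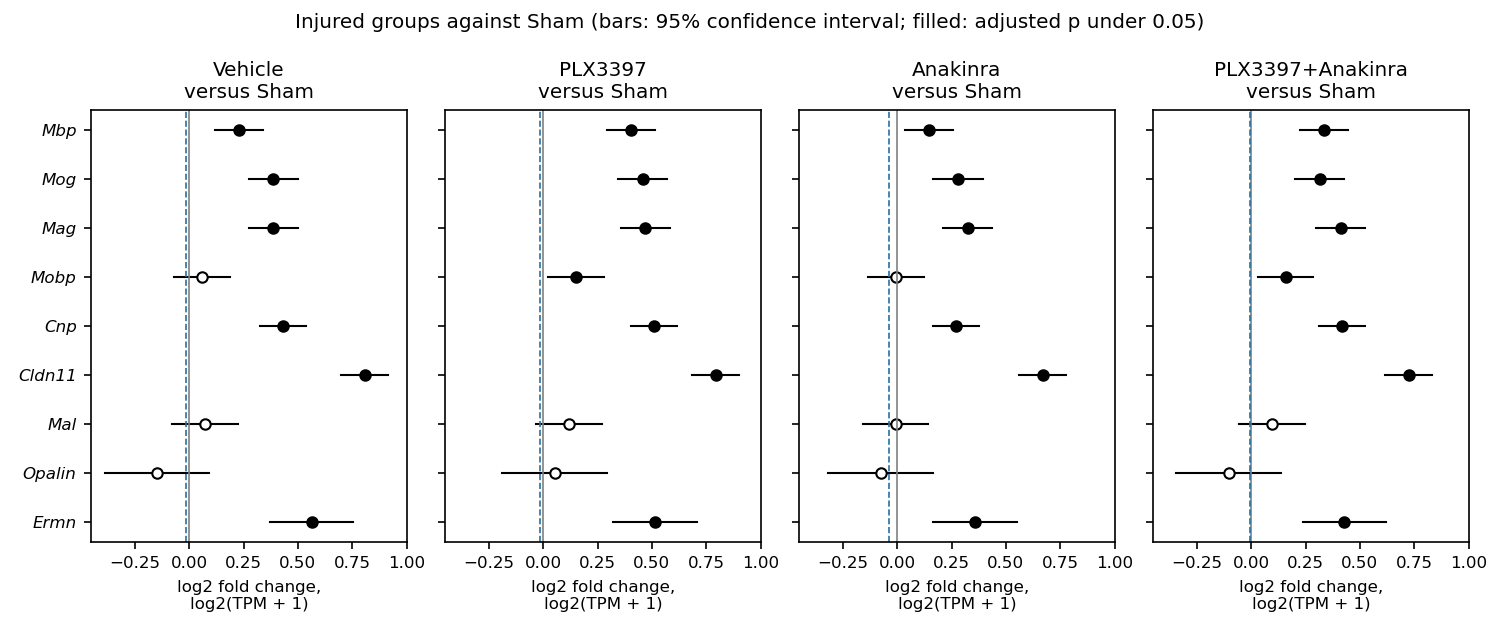
Log2 fold changes on the log2(TPM + 1) scale of the 9 genes in the 4 injured groups against Sham, with 95% confidence intervals (bars). Filled dots passed the test and the dashed line is the median over all genes tested. Cldn11 lies between 0.67 and 0.81 in all 4 panels, whereas the intervals of Mal and Opalin cross 0 in each.

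Cldn11, Ermn, Cnp, Mag, Mog and Mbp passed in all 4 comparisons with Sham. Cldn11 led each time, with log2 fold changes of 0.79 ± 0.05 for PLX3397, 0.67 ± 0.05 for Anakinra and 0.72 ± 0.05 for PLX3397+Anakinra (SE). Mobp, a protein of compact myelin, passed narrowly with PLX3397 (0.15 ± 0.06, SE, limma, adjusted p = 0.049) and with PLX3397+Anakinra (0.16 ± 0.06, SE, limma, adjusted p = 0.046). Leaving out a single mouse lost each of these Mobp calls for most of the mice, with mice of every group among them, such as Sham mice J07, J08 and J15. Both calls were also lost with any TPM above 0 or only the compared groups in the fit (adjusted p between 0.081 and 0.12). Without Sham mouse J16, Mal passed as higher with PLX3397 (0.22 ± 0.06, SE, adjusted p = 0.0053) and with PLX3397+Anakinra (0.20 ± 0.06, SE, adjusted p = 0.014). For Mbp with Anakinra, the log2 fold change of 0.14 ± 0.05 (SE, adjusted p = 0.026) no longer passed without Anakinra mouse J05 or J06 or Sham mouse J15, or with all genes above 0 TPM in the fit (adjusted p = 0.057).

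Over the 5 groups together, an F-test in limma found a difference for 7 of the 9 genes, against 51.9% of all genes tested, and Mal and Opalin were the exceptions. In group means, Sham was lowest and Anakinra next for Cldn11, Cnp, Ermn, Mag, Mbp and Mog, and for each of these 6 genes Anakinra was still above Sham (adjusted p from 8.3e-11 for Cldn11 to 0.026 for Mbp). For Mobp and Mal the Anakinra group had the lowest mean and Sham the next, and these 2 neighbours did not differ beyond their spread, nor did any neighbours in the order of Opalin. Between neighbours among the injured groups, only Cnp in PLX3397+Anakinra against Anakinra passed (adjusted p = 0.047).

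The second question was whether the drugs changed myelin transcripts after injury. An F-test over the 4 injured groups passed for 2 of the 9 genes, Mbp (adjusted p = 0.0023) and Cnp (adjusted p = 0.0055), against 15.7% of all genes tested. Without Sham mouse J16, which enters only through the estimate of the spread, 4 of the 9 genes passed. The estimate changes for all genes in that refit, and the share of them that passed is not given.

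With PLX3397 against Vehicle, Mbp was the only member that passed, 1 of 9 higher and 0 lower, where 3.23% of all genes tested rose and 6.66% fell. Mbp was 1926, 2085, 1985, 1967 and 1834 TPM in the PLX3397 mice, all above the highest Vehicle mouse at 1813 TPM, a separation that 1.98% of all genes showed in that direction. The log2 fold change was 0.17 ± 0.05 (SE, limma, adjusted p = 0.027), a ratio of means of 1.13. The call was lost without any one of Vehicle mice J01B and J19B or PLX3397 mice J02, J12 and J19, with adjusted p then between 0.0502 and 0.0731. It was also lost with all genes above 0 TPM in the fit (adjusted p = 0.064), with median-ratio scaling (0.072) and with only the compared groups in the fit (0.055). The other 8 genes had log2 fold changes from -0.05, for Ermn, to 0.20, for Opalin. The 95% confidence interval was -0.23 to 0.13 for Ermn and -0.03 to 0.43 for Opalin, while that of Cldn11 was narrower, -0.12 to 0.09.

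With Anakinra against Vehicle, 0 of the 9 genes passed in limma, where 0.116% of all genes tested did. At an unadjusted p under 0.05, 4 of the 9 were lower (Mog, Cnp, Cldn11 and Ermn) and 0 higher, against 6.94% and 5.50% of all genes. Cnp had the smallest of these p-values. Its TPM was 595, 545, 549, 510 and 551 in the Anakinra mice and 568, 635, 643, 601 and 629 in the Vehicle mice, so that the groups overlapped in 1 Anakinra mouse above the lowest Vehicle mouse. The log2 fold change was -0.16 ± 0.05 (SE, limma, adjusted p = 0.15), with a 95% confidence interval of -0.26 to -0.06. All but 1 of the 9 fold changes were below 0, with a median of -0.09 against -0.02 over all genes.

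With PLX3397+Anakinra against Vehicle, 0 of the 9 genes passed in limma, although 17.5% of all genes tested did. At an unadjusted p under 0.05 there were also 0, where 15.7% of all genes were higher and 14.1% lower. The fold changes ran from -0.13, for Ermn, to 0.10, for Mbp, with a median of 0.02. Mbp was 1993, 1952, 1719, 1960 and 1716 TPM in these mice, so 2 of the 5 lay within the Vehicle range and 3 above it. Its 95% confidence interval of -0.00020 to 0.21 on the log2 scale includes the difference seen with PLX3397 alone. The drug doses were the same alone and combined.

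**Figure D3:**
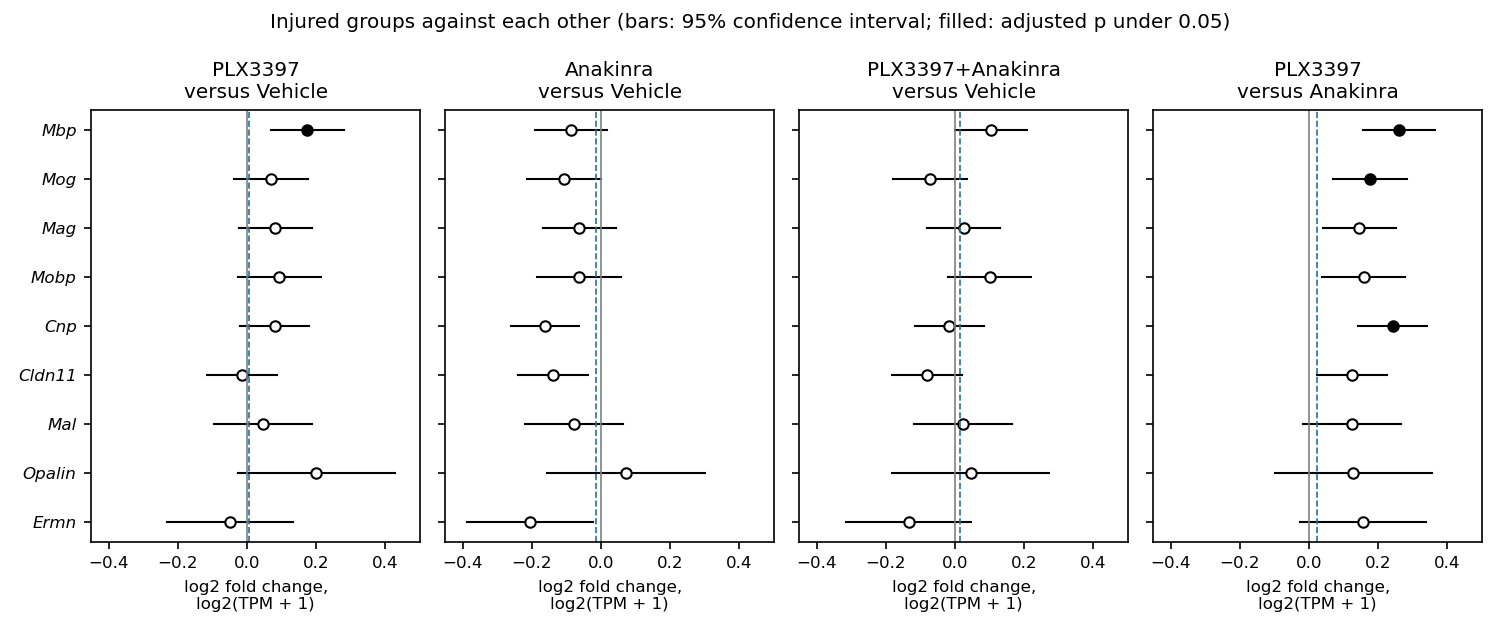
Log2 fold changes on the log2(TPM + 1) scale of the 9 genes between injured groups, with 95% confidence intervals (bars). Filled dots passed the test and the dashed line is the median over all genes tested. Against Vehicle, 1 gene passed with PLX3397 and 0 with Anakinra or both drugs, while PLX3397 against Anakinra shows all 9 dots to the right of 0, of which Mbp, Mog and Cnp are filled.

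The single drugs differed most from each other. PLX3397 was above Anakinra for Mbp, Mog and Cnp, 3 of 9 genes, where 1.29% of all genes tested were higher and 5.41% lower. All 9 fold changes were above 0, with a median of 0.16 against 0.02 over all genes. Mbp had a log2 fold change of 0.26 ± 0.05 (SE, limma, adjusted p = 0.0012), Cnp of 0.24 ± 0.05 (SE, adjusted p = 0.0016) and Mog of 0.18 ± 0.05 (SE, adjusted p = 0.036). For these 3 genes the mice of the groups did not overlap, which was true of 1.89% of all genes in that direction. Cnp, for instance, was 621 to 675 TPM with PLX3397 and 510 to 595 TPM with Anakinra. The Mog call was lost without any one of 7 mice, PLX3397 mice J02, J19 and J20 and Anakinra mice J05, J06, J21 and J22. It was also lost with median-ratio scaling (adjusted p = 0.084) and with all genes above 0 TPM in the fit (0.059). Mobp passed here without Sham mouse J16 (adjusted p = 0.026).

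Adding PLX3397 to Anakinra gave higher Mbp (0.19 ± 0.05, SE, limma, adjusted p = 0.013) and Cnp (0.15 ± 0.05, SE, adjusted p = 0.047), 2 of 9 genes where 4.67% of all genes rose and 8.10% fell, but for both genes the groups overlapped. With median-ratio scaling both calls were lost (adjusted p = 0.082 for Mbp and 0.17 for Cnp). The Cnp call was also lost with all genes above 0 TPM (0.079) or only the compared groups in the fit (0.083), and without any one of 15 of the 24 mice, with adjusted p then up to 0.14. Mobp (0.16 ± 0.06, SE, limma, adjusted p = 0.066) did not pass, but did with only the compared groups in the fit (0.037). It also passed without Anakinra mouse J14, PLX3397+Anakinra mouse J04 or Sham mouse J16 (adjusted p from 0.013 to 0.048). Adding Anakinra to PLX3397 changed 0 of the 9 genes in limma, where 0.151% of all genes passed. At an unadjusted p under 0.05, where 2.94% of all genes were higher and 3.78% lower, Mog alone was lower (log2 fold change -0.14 ± 0.05, SE, limma adjusted p = 0.48). In the test of the interaction, whether both drugs together differed from the sum of the single drugs, 0 of the 9 and 0.00% of all genes passed in limma. At an unadjusted p under 0.05 there were 0 members, where 3.86% of all genes were above 0 and 4.22% below. The 95% confidence interval for Mbp was -0.13 to 0.16 and for Opalin, the widest, -0.55 to 0.09.

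The study's own criteria for a changed gene are an unadjusted p under 0.05, a ratio of group means above 2 and a difference above 4 TPM. By these, 0 of the 9 genes changed in any of the 10 pairs of groups, since the largest ratio was 1.75, that of Cldn11 in Vehicle versus Sham. Of all genes tested, 5.26% (Vehicle), 3.66% (PLX3397), 5.29% (Anakinra) and 2.90% (PLX3397+Anakinra) met them against Sham. Against Vehicle 1.02% (PLX3397), 0.180% (Anakinra) and 1.65% (both drugs) did, and 0.0985% (both drugs against PLX3397), 1.57% (both against Anakinra) and 0.747% (PLX3397 against Anakinra) in the other pairs.

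Spread between mice differed among the genes. The coefficient of variation within a group was 3.14% to 7.40% for Mbp and 3.32% to 6.01% for Cldn11, but 7.24% to 18.97% for Opalin, with the widest spread in Sham and 15.4% in PLX3397+Anakinra. A single mouse made much of the width in PLX3397+Anakinra. Mouse J09 was the lowest of its group for Mog, Cnp, Opalin and Ermn, with 63.2 TPM of Opalin against 82.1 to 95.5 TPM in the other 4 mice and 66.5 TPM of Ermn against 88.0 to 97.2 TPM, yet it was the highest for Mobp at 675 TPM. It was also the lowest of its group in the summed TPM of the other myelin sheath and paranode genes, 4505 against 4692 to 5362.

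Other genes of myelin and of the oligodendrocyte lineage were followed in 5 lists. Of the 23 other myelin sheath and paranode genes followed, 22 had a row and were tested, and 17 rose and 1 fell in Vehicle versus Sham, with a median log2 fold change of 0.39, close to that of the 9 genes. Apod, a lipid-carrying apolipoprotein, had the largest change, 1.41 ± 0.10 (SE), from 265 ± 39.6 TPM to 704 ± 77.0 TPM (SD). Whether oligodendrocytes alone gave the higher levels in this list, that of Apod among them, was not tested. Omg, the oligodendrocyte myelin glycoprotein that neurons express as well, was the gene that fell, by 0.21 on the log2 scale, from 172 ± 13.7 to 149 ± 16.8 TPM (SD).

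Genes listed as enzymes of myelin lipids and metabolites moved in the same direction, 7 of 9 higher and 1 lower, with a median of 0.43. Ugt8a, which makes the galactolipid galactosylceramide, rose by 0.80 ± 0.08 (SE), from 55.7 to 98.1 TPM in group means. Pex5l, which is in this list but is a peroxisomal import receptor relative and not an enzyme, fell by 0.34 on the log2 scale. Neurons also express Pex5l. All but 1 of the 9 oligodendrocyte transcription factors were higher, 8 of 9 with a median of 0.58, led by Nkx2-2 at 1.11 ± 0.12 (SE), a factor of early differentiation, while St18 had 0.16 ± 0.09 (SE, adjusted p = 0.17).

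Genes of oligodendrocyte progenitors and newly forming oligodendrocytes were higher in 10 of 10 cases, with a median of 0.71. Enpp6, a marker of newly forming oligodendrocytes, rose by 1.36 ± 0.12 (SE), from 6.09 to 17.2 TPM, and Pdgfra, the growth factor receptor of progenitors, by 0.32 ± 0.06 (SE), from 23.2 to 29.3 TPM. Of the genes that oligodendrocytes can switch on in disease, levels were higher in 6 of 6 cases, with a median of 2.41, from Il33 at 0.84 ± 0.08 to Serpina3n at 4.42 ± 0.12 (SE). Other cells of injured brain, astrocytes above all, also express Serpina3n, C4b and H2-D1, so these 6 do not mark oligodendrocytes alone.

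**Figure D4:**
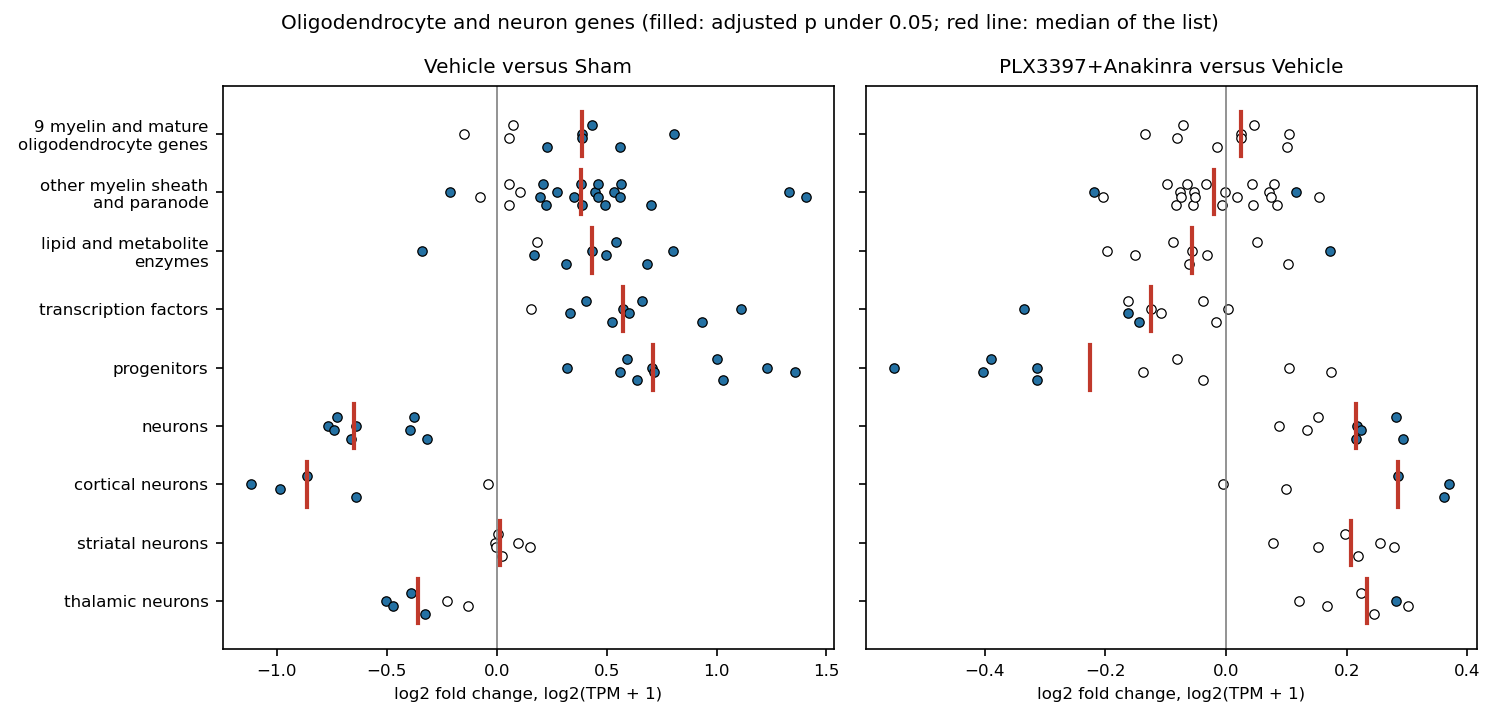
Log2 fold changes on the log2(TPM + 1) scale of the 9 genes, 4 other oligodendrocyte lists and 4 neuron lists, one dot per gene (height within a row has no meaning), in Vehicle versus Sham and PLX3397+Anakinra versus Vehicle. Filled dots passed the test and red lines are list medians. After injury the oligodendrocyte medians lie between 0.39 and 0.71 and those of all neurons and cortical neurons at -0.65 and -0.86, and with both drugs the progenitor median lies at -0.23 and that of the 9 genes at 0.02.

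With PLX3397+Anakinra against Vehicle, 7.88% of all genes tested were higher and 9.60% lower. Of the 9 genes 0 passed, and of the other 22 myelin genes 1 was higher (Plekhb1, 0.12) and 1 lower (Trf, the iron carrier transferrin, by 0.22 on the log2 scale). Among progenitor genes 5 of 10 were lower (C1ql1, Neu4, Cspg4, Gpr17 and Pdgfra) and 0 higher, with a median of -0.23. The largest of these differences was that of C1ql1, from 23.2 ± 4.84 TPM in Vehicle to 15.3 ± 0.868 TPM (SD, n = 5 each), a log2 fold change of -0.55 ± 0.12 (SE, limma, adjusted p = 0.0018). Nkx2-2, Olig1 and Sox8 were lower among the 9 transcription factors, Nkx2-2 at -0.34 ± 0.11 (SE, adjusted p = 0.044). Of the 9 genes in the lipid enzyme list only Pex5l, itself not an enzyme, passed, higher by 0.17 ± 0.04 (SE). Of the 6 disease genes H2-D1, Serpina3n and C4b were lower, H2-D1 by 0.86 on the log2 scale. The opposite ends of the lists did not pass. Largest were Bmp4 (0.17 ± 0.12, SE) among progenitor genes and Nfasc (0.15 ± 0.07, SE) among the other myelin genes. Myrf (0.003 ± 0.07, SE) was largest among transcription factors and Il33 (-0.04 ± 0.08, SE) among disease genes. Elovl7 (-0.20 ± 0.08, SE) was the smallest of the lipid enzyme list. In the same comparison 5 of 8 general neuron genes and 3 of 5 cortical neuron genes were higher, and 7 of 7 microglia and 7 of 7 phagocyte genes lower. The part of these markers in the levels of the 5 lower progenitor genes was not tested.

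With PLX3397 alone against Vehicle, 4 of 10 progenitor genes were lower (Cspg4, Gpr17, Neu4 and Pdgfra), with a median of -0.16. Of the progenitor genes that did not pass, Bmp4 (0.32 ± 0.12, SE, limma, adjusted p = 0.11) and Bcas1 (0.05 ± 0.05, SE) lay above 0. Also lower were 1 of 9 transcription factors, Olig1, and 2 of 6 disease genes, H2-D1 (-0.62 ± 0.09, SE) and Cdkn1a (-0.42 ± 0.12, SE). None of the other 22 myelin genes and none of the 9 genes in the lipid enzyme list passed in this comparison. With Anakinra against Vehicle, 0 genes of the 5 lists passed in limma, and the medians ran from -0.18 for the transcription factors to -0.05 for the disease genes. A difference between the lists was not tested.

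Markers of other cells moved after injury too. In Vehicle versus Sham 8 of 8 general neuron genes fell, with a median of -0.65, from Nefl at -0.77 ± 0.06 to Map2 at -0.32 ± 0.08 (SE), and their summed TPM was 6534 to 6836 in Sham and 3896 to 4771 in Vehicle. Cortical neuron genes fell in 4 of 5 cases (median -0.86, Lamp5 -1.12 ± 0.09, Rorb -0.04 ± 0.08, SE) and thalamic neuron genes in 4 of 6 (median -0.36, Tnnt1 -0.51 ± 0.14, Tcf7l2 -0.13 ± 0.12, SE), while 0 of 6 striatal neuron genes passed (Rgs9 0.15 ± 0.12, Drd2 -0.01 ± 0.13, SE). Whether neurons alone gave the levels of these regional genes, that of Tcf7l2 among them, was not tested. The part of these lower neuronal levels, and of the makeup of the tissue block, in the higher share of myelin transcripts was not tested.

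All 7 astrocyte genes were higher (7 of 7, from Slc1a2 at 0.22 ± 0.05 to Gfap at 4.06 ± 0.10, SE), as were 7 of 7 microglia genes (Sall1 0.88 ± 0.08 to Aif1 2.73 ± 0.13, SE) and 7 of 7 phagocyte genes (Mrc1 1.05 ± 0.15 to Spp1 7.58 ± 0.22, SE). The summed TPM of the microglia genes was 314 to 329 in Sham, 1177 to 1506 in Vehicle and 462 to 614 with PLX3397+Anakinra. Of the endothelial genes 4 of 5 were higher (Cldn5 0.52 ± 0.09, Flt1 -0.08 ± 0.09, SE). Red blood cell genes passed in 0 of 3 cases in Vehicle versus Sham (Alas2 0.20 ± 0.26, Hba-a1 0.12 ± 0.22, SE) but were lower in 3 of 3 with PLX3397 against Vehicle (median -1.81) and with both drugs (median -1.72). Most genes of Schwann cells, which myelinate peripheral nerve, were low. Pmp2 had at most 0.365 TPM in any mouse and Prx, Egr2 and Ncmap at most 1.87 TPM. Only Pmp22, which other cells express as well, was abundant. In Vehicle versus Sham 2 of the 4 Schwann cell genes tested were higher, Pmp22 by 1.32 ± 0.09 (SE) and Prx, from 1.04 to 1.41 TPM in group means, by 0.24 ± 0.10 (SE, limma, adjusted p = 0.044), whereas Ncmap had -0.03 ± 0.17 (SE).

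Between injured groups, markers of other cells moved as well. With PLX3397 against Vehicle, Mbp was higher and 4 of 10 progenitor genes were lower. There 3 of 8 general neuron genes were higher (Nefl 0.23 ± 0.06, Syt1 0.18 ± 0.05 and Stmn2 0.17 ± 0.05, SE). Also higher were 1 of 5 cortical (Tbr1) and 2 of 6 thalamic neuron genes (Rora and Slc17a6). In that comparison 7 of 7 microglia genes (median -1.35) and 6 of 7 phagocyte genes (median -0.83) were lower, and 0 of 7 astrocyte genes passed. With both drugs against Vehicle the general neuron genes that were higher were Nefl, Rbfox3, Slc17a7, Snap25 and Syt1 (median of the list 0.22), and the cortical ones Lamp5, Neurod6 and Tbr1 (median 0.28). The medians of the microglia and phagocyte genes were then -1.44 and -1.69, and 1 of 6 thalamic neuron genes (Rora) was higher and 1 of 7 astrocyte genes (Gja1) lower. The part of these markers in the levels of Mbp and of the progenitor genes was not tested.

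Among the genes reported here, those whose levels followed the 9 most closely over the 24 libraries were themselves oligodendrocyte genes or genes often found in glia. By Pearson's r with the mean of the 9 on the log2(TPM + 1) scale, they were Cmtm5 (r = 0.93), Bcas1 (r = 0.92), S100b (r = 0.92), Ugt8a (r = 0.91) and Enpp6 (r = 0.90). After group means were taken away, so that only mice within a group were compared, Tspan2 (r = 0.79), Plekhb1 (r = 0.77), Gm2115 (r = 0.75), Cmtm5 (r = 0.74) and Tmem88b (r = 0.73) led. These coefficients are a description, with no test, and the libraries share the same tissue block and scaling. In Vehicle versus Sham, Tspan2 rose by 0.23 ± 0.06 (SE), whereas Plekhb1 (0.06 ± 0.04, SE) and Gm2115 (0.01 ± 0.12, SE) did not pass.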

How the data were processed

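Poly(A) RNA of each mouse was sequenced as paired-end reads, which the authors trimmed and mapped in CLC Genomics Workbench to build GRCm38 and deposited as TPM per gene; no library was pooled. TPM was used as deposited, from the table of all genes. Further deposited tables hold the same values rounded, a filtered subset and the authors' own p and F values, and were not used.

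Groups came from the sample labels. The test was limma 3.58.1 in R 4.3.3 (lmFit, eBayes with trend) on log2(TPM + 1), with genes at a mean TPM of at least 0.5, 1 mean per group over all 24 libraries, Benjamini-Hochberg adjustment over all genes tested and calls at adjusted p under 0.05, for 10 pairs of groups, the interaction and 2 F-tests. Fold changes are on the log2(TPM + 1) scale, which understates changes of low genes. The code was tested on simulated data. Genes were named by a rule: the 9 genes; in each list the largest and smallest fold change in Vehicle versus Sham and, for the 5 oligodendrocyte lists, in PLX3397+Anakinra versus Vehicle; the 5 most alike by each correlation; others where a count was 5 or fewer. The members, the 15 lists and the rule were chosen with earlier results of these data known. One listed gene, Sept4, has no row, and a few genes are not reported here and were left out of the lists. Alternatives were a pseudocount of 0.1, a mean of at least 5 TPM or any TPM above 0, median-ratio scaling, only the compared groups, the study's criteria (unadjusted p under 0.05, ratio above 2, difference above 4 TPM) and leaving out each mouse.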

Additional observations from a re-analysis of the deposited data

Results flagged for a closer look

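In Sham, the Mobp level of mouse J16, 687 TPM, lay far above the other 3 mice, of which the nearest was at 549 TPM; the gap was 0.830 of the range of the group. It was 1 of 45 combinations of a gene and a group examined in this way, where chance alone marks about 1 group in 20.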

How the results depend on the processing

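The counts of members that passed against Sham were 6 with Vehicle, 7 with PLX3397, 6 with Anakinra and 7 with PLX3397+Anakinra, and stayed within 1.5 times of this under each alternative but one. Under the study's criteria of a ratio above 2 and a difference above 4 TPM, 0 members passed in any of the 10 pair comparisons, since no member doubled.

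The few calls between injured groups depended on the fit. For PLX3397 versus Vehicle, the count of 1 became 0 with any TPM above 0, with median-ratio scaling and with only the compared groups. For PLX3397+Anakinra versus Anakinra, the count of 2 became 1 with any TPM above 0 and 0 with median-ratio scaling. For the F-test over the 4 injured groups, the count of 2 became 4 with only the compared groups.

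With 1 mouse left out in turn, the count ranged from 0 to 1 for PLX3397 versus Vehicle (0 without Vehicle mice J01B or J19B or PLX3397 mice J02, J12 or J19), from 1 to 3 for PLX3397+Anakinra versus Anakinra and from 2 to 4 for the F-test over the injured groups. It ranged from 6 to 8 for Vehicle, PLX3397 and PLX3397+Anakinra versus Sham, from 5 to 6 for Anakinra versus Sham and from 2 to 4 for PLX3397 versus Anakinra. The shares of all genes that passed in the refits, with a mouse left out or with another setting, are not given. Of the fold changes of single members, 480 kept their side of the threshold under the other settings, 14 lost it and 1 gained it; with a mouse left out the numbers were 2308, 59 and 9. No called fold change turned its sign. Among fold changes that were not called, the sign turned in 38 cases over all settings, so directions of small changes were not stable. The causes were not tested. The read depth is unknown, and groups of 4 or 5 mice limit the precision.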
